A study of Mus musculus with 2197 samples.

Results

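Oncofetal genes are transcribed in the embryo, fall silent or nearly so in most adult tissues, and return in many tumours. Described here are 10 genes of this kind among the 40824 genes of the Smart-seq2 read count table: Lin28a and Lin28b, Hmga1 and Hmga2, Igf2bp1, Igf2bp2 and Igf2bp3, Mdk, Gpc3 and Prtg. They were chosen by name, with earlier results of these data known, so shares of all genes given below are a background and not a test of the list. All 10 were also among the 27998 genes of the droplet matrices.

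The LIN28 proteins bind the precursors of the let-7 microRNAs and block their maturation, and mature let-7 in turn represses mRNAs that carry its seed match in the 3′ UTR, Lin28a and Lin28b among them. HMGA1 and HMGA2 are small chromatin proteins that bind AT-rich DNA, and Hmga2 is among the best known let-7 targets. The IGF2BP proteins bind mRNAs, Igf2 mRNA among them, and regulate their stability, transport and translation. Midkine (Mdk) is a secreted, heparin-binding growth factor, glypican 3 (Gpc3) is a proteoglycan of the cell surface and a marker of embryonic liver and liver tumours, and protogenin (Prtg) is a cell surface receptor of the immunoglobulin superfamily.

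Single cells of the mouse embryonic pancreas were sorted on fluorescent reporters and sequenced one by one by Smart-seq2, which reads whole transcripts, and unsorted E14.5 pancreas was run through droplets in 2 libraries. The 2195 Smart-seq2 cells fell into 29 groups by reporter and day. The groups were Pdx1-GFP+ (E9.5, E10.5 and E11.5) and Pdx1-GFPhigh (E10.5), from a transgenic line that marks pancreatic progenitors; Pdx1-Cre;Rosa-RFP+ (E10.5 to E15.5, called Pdx1-Cre here), in which Cre driven by Pdx1 marks all pancreatic lineages; and Ptf1a-CreER;Rosa-RFP+ and Ngn3-Cre;Rosa-RFP+ (both E11.5). Endocrine cells came from an Ngn3-GFP knock-in, sorted as Ngn3-GFP+ (E10.5, E12.5, E16.5 and E17.5) or split into Ngn3-GFPhigh and Ngn3-GFPlow (each day from E13.5 to E15.5). Alpha cells came from Gcg-GFP+ (E15.5 and E17.5) and beta cells from Ins1-RFP+ (E15.5), and duct lineage cells came from Sox9-CreER;Rosa-RFP+ (E16.5 and E17.5). Explants of E13.0 Ins1-RFP dorsal pancreas were cultured for 2 days with 10 µM U0126, an inhibitor of MEK1 and MEK2, or as controls, with several pancreata on each membrane. The time at which CreER was induced is not given in the sources used here, and a Cre reporter marks a cell's history and not what it expresses when sorted.

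Replicates were sets, numbered in each cell's title before the cell number. Whether a set was an embryo, a litter, a sort or a plate is not stated, so the p-values cover set-to-set spread alone, and that may be technical. Counts were summed over the 6 to 71 cells of each of 82 sets, and levels are CPM, counts scaled to the same total in every set, from 2838610 to 79253014 counts in a set. In such sums fewer cells that express a gene and less RNA per cell cannot be told apart. Markers of other cell types were found in 196 cells. Most of these were called leukocyte-marker cells here, which carried at least 4 of 8 leukocyte markers (Ptprc, Csf1r, C1qa and others) at 100 CPM or more: 13 of 62 cells of Ngn3-GFP+ E10.5, 38 of 121 of Ngn3-GFP+ E12.5, and 52 of 118, 31 of 104 and 15 of 37 of Ngn3-GFPlow on its 3 days from E13.5 to E15.5. No such cell was found in Ngn3-GFPhigh at any of its days. All values of Hmga1 are uncertain, since its level differed greatly between the droplet libraries (below). The alpha cell label held in every cell, with Gcg at 5000 CPM or more in 36 of 36 cells at E15.5 and 11 of 11 at E17.5.

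All 10 are protein-coding genes. In GENCODE M21 on GRCm38 their positions are Lin28a at chr4:134003330-134018841 (minus strand), Lin28b at chr10:45376620-45486395 (minus strand), Hmga1 at chr17:27556497-27563674 (plus strand), Hmga2 at chr10:120361275-120476469 (minus strand), Igf2bp1 at chr11:95957163-96005940 (minus strand). The others are Igf2bp2 at chr16:22059009-22163299 (minus strand), Igf2bp3 at chr6:49085223-49214957 (minus strand), Mdk at chr2:91929805-91932297 (minus strand), Gpc3 at chrX:52272426-52613950 (minus strand) and Prtg at chr9:72806874-72917291 (plus strand).

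The sequence that links most of these genes is the let-7 seed, bases 2 to 8 of the mature microRNA, set in capitals here from the RefSeq sequences of GRCm38.p6. Of 11 distinct mature let-7 and miR-98 names, 10 shared 1 seed, and let-7j alone differed, in its last seed base. The exception and 3 that share it are shown so that the seed can be read against the target sites.
mmu-let-7a-5p, chr13:48538239-48538260, minus strand: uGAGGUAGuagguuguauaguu
mmu-let-7g-5p, chr9:106178846-106178867, plus strand: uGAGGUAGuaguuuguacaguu
mmu-miR-98-5p, chrX:151913229-151913250, plus strand: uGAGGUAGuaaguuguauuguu
mmu-let-7j, chr3:140028281-140028304, plus strand: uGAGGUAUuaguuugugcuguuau

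The DNA letters that pair with this seed are CTACCTC, searched on the mRNA strand only. They were found in the longest annotated 3′ UTR (GENCODE M21, GRCm38) of 8 of the 10 genes. Hmga2, Lin28b and Igf2bp1 held 4 matches each, Lin28a and Prtg 2 each, and Hmga1, Igf2bp2 and Igf2bp3 1 each. Mdk and Gpc3 held none in UTRs of 285 and 441 bases, which are the shortest of the 10. Among 21022 protein-coding genes 9.02% held a match, and 0.152% held 3 or more. Among the 9794 genes with a 3′ UTR of 1000 to 6000 bases, the shares were 13.96% and 0.225%. A match is a run of letters and not a measured site, and mature let-7 was not measured by either method.

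The windows of 30 bases below are shown because they hold matches of genes that were higher in early than in late endocrine cells (below), with the match in capitals. All 4 of Hmga2 are given, so that the bases around them can be compared, and 1 each of Lin28a, Lin28b and Igf2bp1. An A follows the match at 1 of the 4 sites of Hmga2, 1 of 4 of Lin28b, 3 of 4 of Igf2bp1 and 2 of 2 of Lin28a.
Hmga2 site 1, chr10:120364217-120364246, minus strand: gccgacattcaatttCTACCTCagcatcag
Hmga2 site 2, chr10:120362980-120363009, minus strand: ccccactcctcaataCTACCTCtgaatgct
Hmga2 site 3, chr10:120362542-120362571, minus strand: ctgatttgcaaggaaCTACCTCcacacttc
Hmga2 site 4, chr10:120361684-120361713, minus strand: aatcaaaacacactaCTACCTCttaagtcc
Lin28a site 1, chr4:134005182-134005211, minus strand: gcacagcctgttgaaCTACCTCatttttgc
Lin28b site 1, chr10:45381015-45381044, minus strand: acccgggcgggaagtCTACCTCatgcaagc
Igf2bp1 site 3, chr11:95958756-95958785, minus strand: gtataaatggatgaaCTACCTCagtcctca

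Across the 29 groups the genes covered very different ranges. Per kilobase of the deposited gene length, the median group level was 328 CPM for Mdk and 204 CPM for Gpc3, 10.2 to 24.4 CPM for Hmga1, Hmga2 and the Igf2bp genes, and 0.175 to 0.483 CPM for Lin28a, Lin28b and Prtg. Mdk ranged in group mean from 12.2 CPM (Ins1-RFP+ E15.5) to 1097 CPM (Pdx1-Cre E10.5), and Gpc3 from 14.4 CPM (Ins1-RFP+ E15.5) to 2444 CPM (Pdx1-GFPhigh E10.5). Igf2bp2 and Igf2bp3 varied least, from 66.9 to 238 CPM and from 51.5 to 215 CPM. When the groups were ordered by mean, the sets of most neighbours overlapped: of 28 neighbouring pairs, none was apart for Hmga2 and Prtg, 1 for Hmga1, Lin28a, Lin28b and Igf2bp3, 2 for Igf2bp1 and Igf2bp2, 4 for Mdk and 5 for Gpc3. So the orders hold between distant groups and not from one group to the next.

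**Figure D1:**
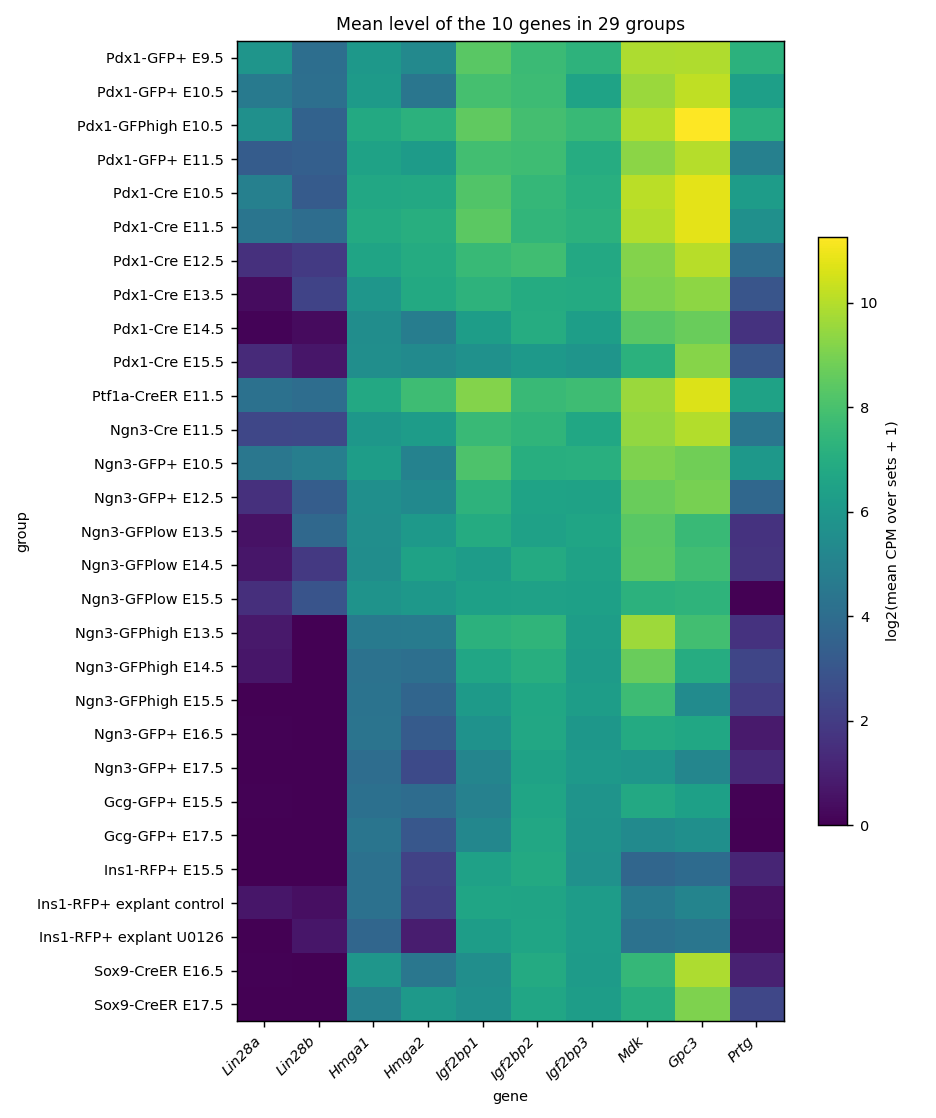
Mean level of the 10 genes (columns) in the 29 groups (rows), as log2(mean CPM over sets + 1) on the colour scale. Lin28a, Lin28b and Prtg are dark in all groups from E16.5 on, while Igf2bp2 and Igf2bp3 keep nearly one colour from top to bottom.

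Lin28a had its highest group mean in the youngest progenitors. Its level was 91.3, 41.4 and 40.1 CPM in the 3 sets of Pdx1-GFP+ E9.5, 18.8 and 27.97 CPM at E10.5 and 13.4 and 3.92 CPM at E11.5. At E9.5, 71.7% of 113 cells reached 10 CPM. Every E9.5 set thus lay above every E11.5 set. Prtg had the same order, with 233, 88.8 and 128 CPM at E9.5 and 39.5 and 17.6 CPM at E11.5. The other E10.5 sort, Pdx1-GFPhigh, overlapped E9.5 in both genes, at 36.9 and 62.2 CPM of Lin28a and 94.1 and 189 CPM of Prtg.

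The difference between Pdx1-GFP+ E9.5 and E11.5 was tested with edgeR's quasi-likelihood test and Benjamini-Hochberg adjustment over all genes, as were all differences below. None of the 10 genes passed an adjusted p of 0.05, against 0.048% of the 16670 genes tested in either direction, while 5 had an unadjusted p under 0.05. DESeq2 called 2 of them and limma 1. Here and below, counts from fits other than the main edgeR test, or at an unadjusted p, come without the share of all genes. The log2 fold change of E9.5 over E11.5 was 2.72 (SE 0.64, adjusted p = 0.206) for Lin28a and 2.38 (SE 0.60, adjusted p = 0.230) for Prtg.

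In the Pdx1-Cre cells, which follow the whole pancreatic lineage over 6 days, 6 of the 10 genes fell with the day, against 1.46% of all 16343 genes tested. All 10 slopes were negative, with a median of -0.46 log2 units a day against 0.01 over all genes. Mdk fell from 1067 and 1127 CPM at E10.5 through 585, 587, 567 and 527 CPM at E12.5 to 170.3, 80.95 and 181 CPM at E15.5. Its slope was -0.52 (SE 0.07, adjusted p = 7.32e-05) log2 units a day, and no E15.5 set reached any set of E10.5 to E13.5.

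Igf2bp1 fell from 311 and 283 CPM at E10.5 to 63.4, 38.4 and 49.6 CPM at E15.5, a slope of -0.55 (SE 0.08, adjusted p = 2.07e-04). Igf2bp3 fell less, from 135 and 133 to 67.4, 40.8 and 62.9 CPM, with a slope of -0.23 (SE 0.05, adjusted p = 0.0129). Igf2bp2 had a slope of -0.26 (SE 0.08, adjusted p = 0.0540) and did not pass. Its highest set was at E12.5, at 358 CPM, and not on the first day.

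Gpc3 stood at 1923 and 1618 CPM at E10.5, 272, 673, 403 and 298 CPM at E14.5 and 698, 496 and 582 CPM at E15.5, with a slope of -0.38 (SE 0.09, adjusted p = 0.0124). The E15.5 sets all lay above 3 of the 4 E14.5 sets, so the fall was not steady. Hmga1 went from 92.3 and 120.4 CPM at E10.5 to 48.3, 28.1 and 60.4 CPM at E15.5, a slope of -0.30 (SE 0.07, adjusted p = 0.0231). That call was lost without E10.5 set 2, E11.5 set 2 or E15.5 set 2.

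Prtg went from 69.6 and 78.9 CPM at E10.5 to 0, 0.949, 3.00 and 4.43 CPM at E14.5 and 15.9, 0.433 and 5.21 CPM at E15.5, a slope of -0.74 (SE 0.18, adjusted p = 0.0178), and its call was lost without E10.5 set 2. Lin28a was at 27.4 and 31.3 CPM at E10.5, 25.9 and 14.05 CPM at E11.5 and 3.93, 0, 3.14 and 0.857 CPM at E12.5. Its level dropped between neighbouring days, E11.5 and E12.5, whose sets did not overlap. The slope over all days was -0.94 (SE 0.30, adjusted p = 0.0774) and did not pass, and that of Lin28b, -0.98 (SE 0.30, adjusted p = 0.0655), did not either.

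Hmga2 was at 71.3 and 149 CPM at E10.5, 121, 53.3, 196 and 88.9 CPM at E13.5, 7.75, 46.4, 24.1 and 25.6 CPM at E14.5 and 32.4, 60.3 and 30.1 CPM at E15.5. Its sets of E10.5 to E13.5 all lay above those of E14.5, but 1 set of E15.5 reached into the earlier days, and E14.5 set 1 came from only 6 cells. Its slope of -0.40 (SE 0.14, adjusted p = 0.112) did not pass. As a comparison of E15.5 with E10.5 alone, 2 of the 10 genes passed (Igf2bp1 and Mdk), and limma on log2(mean CPM per cell + 1) called all 10. The shares of all genes that these 2 fits called are not given here, so the counts cannot be set against them.

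**Figure D2:**
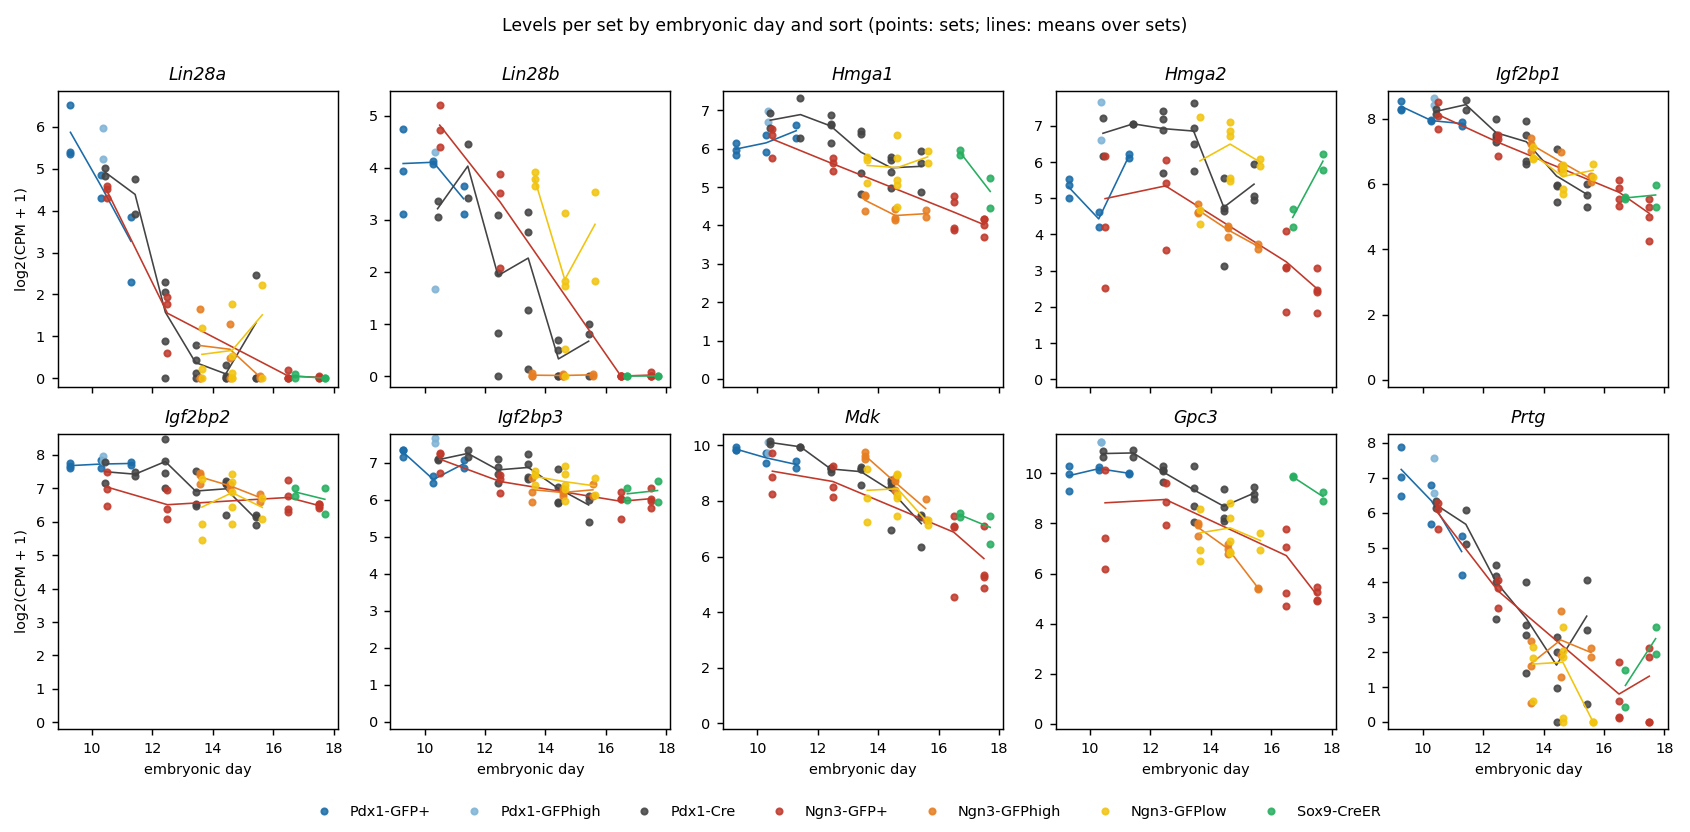
Level of each gene as log2(CPM + 1) against embryonic day, 1 point per set, coloured by sort, with lines through the means over sets. Lin28a and Prtg drop steeply between E9.5 and E12.5 in every sort followed over those days, while Igf2bp2 stays within 42.9 to 358 CPM in the sets shown.

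Other genes around these were less uniform in the Pdx1-Cre series. Of 14 further let-7 targets 2 fell, Arid3b (slope -0.73) and Arid3a (-0.35), both DNA-binding proteins. Of 14 genes of small RNA processing none passed, in edgeR. In the IGF axis Igfbp2 (-0.90) and Igfbp5 (-0.62), which bind IGFs, fell and the ligand Igf1 (1.39) rose. Among the kin and receptors of Mdk, Gpc3 and Prtg, the Prtg relative Igdcc3 fell (-1.49) while Igdcc4 (0.63) and the Mdk relative Ptn (0.47) rose. Mesenchyme markers also moved with the day: of 8, 5 were tested and 3 rose, with a summed level of 25.5 to 39.1 CPM at E10.5 and 24.02 to 4155 CPM at E15.5. Without cells with markers of other types, 9 of the 10 genes fell.

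Cells that express Ngn3 early are called first-wave endocrine cells, and the study set them against later ones. Early Ngn3-GFP+ sets (E10.5 with E12.5) were compared with late ones (E16.5 with E17.5), and 9 of the 10 genes were higher early, against 11.4% of all 19059 genes. The median log2 fold change of the 10 was 2.41, against 0.03 over all genes. Leaving out any 1 of the 14 sets left 9 calls each time.

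Lin28b was at 35.98, 25.6 and 20.03 CPM at E10.5 and 10.46, 3.24 and 13.7 CPM at E12.5. It had no count at all in the 4 sets of E16.5 and 1 count in all of E17.5, against 3089 counts early. By the counts the early to late ratio was 3286, with a 95% exact interval of 589 to 129828, which covers counting error only. Leukocyte-marker cells are part of this ratio, and held 1027 of the 1866 Lin28b counts at E10.5 and 931 of the 1223 at E12.5. The other cells were at 12.3 CPM at E10.5 and 3.29 CPM at E12.5. Lin28a was at 21.8, 23.1 and 18.9 CPM at E10.5, 0.507, 2.85 and 2.44 CPM at E12.5 and at most 0.141 CPM later. No early set of either gene overlapped a late one, and Lin28a was near its floor at both late days.

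Prtg was at 45.01, 76.4 and 67.4 CPM at E10.5, 13.3, 15.6 and 8.54 CPM at E12.5 and at most 3.31 CPM later, a log2 fold change of 4.64 (SE 0.98, adjusted p = 0.00423). Igf2bp1 was at 269, 206 and 360.1 CPM at E10.5 and 38.6, 45.5, 31 and 18.2 CPM at E17.5, a log2 fold change early over late of 2.22 (SE 0.22, adjusted p = 2.69e-05). Both were apart in every set. Igf2bp3 was higher by 0.73 (SE 0.18, adjusted p = 0.0109) and Igf2bp2 did not pass, at 0.09 (SE 0.19, adjusted p = 0.815).

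Hmga1 was at 90.5, 53.3 and 81.9 CPM at E10.5 and 16.9, 12.03, 15.1 and 17.1 CPM at E17.5, a log2 fold change of 1.74 (SE 0.20, adjusted p = 6.61e-05). Hmga2 was at 17.3, 4.70 and 70.3 CPM at E10.5 and 7.39, 4.34, 2.56 and 4.54 CPM at E17.5, a log2 fold change of 2.38 (SE 0.53, adjusted p = 0.00577). Its early sets spread over more than an order of magnitude, and some overlapped the late sets.

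Mdk was at 303, 468 and 835 CPM at E10.5 and 37.2, 28.2, 134 and 39.5 CPM at E17.5, a log2 fold change of 2.44 (SE 0.42, adjusted p = 0.00113). Gpc3 was at 72.3, 169 and 1116 CPM at E10.5 and 37.5, 43.5, 28.6 and 29.6 CPM at E17.5, a log2 fold change of 2.86 (SE 0.55, adjusted p = 0.00240). For Mdk the early sets lay above all late ones. For Gpc3 they did not, since 2 of the 3 sets of E10.5 lay below the highest set of E16.5, at 222 CPM.

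Early and late cells also differed in other ways. All 8 leukocyte markers were higher early, and their summed level was 388 to 6499 CPM in the early sets and 24.5 to 687 CPM in the late ones. Of 7 liver markers tested 5 were higher early, with a summed level of 391.6 to 3300 CPM early and 161 to 679 CPM late, and of 7 endothelium markers tested 5 were higher early, with 36.7 to 190.4 CPM early and 17.6 to 28.8 CPM late. Of 10 mitosis genes 4 were higher early, Birc5 (3.38), Mki67 (2.99), Tpx2 (2.82) and Cdk1 (2.52). Without cells that carried markers of other types the same 9 of the 10 genes passed. With only cells at 5000 CPM of Gcg or more, that is among glucagon cells of both ages, 6 passed (Lin28a, Igf2bp1, Igf2bp3, Prtg, Mdk and Gpc3). The part of cell division in these differences was not tested.

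Among the other let-7 targets, 5 of 14 were higher early, Trim71 (1.90), a ubiquitin ligase, Nr6a1 (1.72), a nuclear receptor, and Arid3a (1.54) among them, and the receptor Igf1r (-1.36) was lower. Of the 14 small RNA genes 2 were higher, Tarbp2 (0.67), a partner of Dicer, and Syncrip (0.53). In the IGF axis Igf2 (2.04), Igfbp2 (2.75) and Igfbp4 (3.28) were higher early and Igf2r (-0.85), which clears IGF2, was lower. Igdcc3 was higher by 7.45.

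At E16.5 and E17.5 the duct lineage (Sox9-CreER) differed from the endocrine lineage (Ngn3-GFP+) in 3 of the 10 genes, all higher in the duct lineage, against 11.4% of all genes. Gpc3 was at 919.6 and 941 CPM at E16.5 and 606 and 470.1 CPM at E17.5 in Sox9-CreER and at 25 to 222 CPM in the 8 Ngn3-GFP+ sets, a log2 fold change of 3.62 (SE 0.60, adjusted p = 4.81e-04). The lineages did not overlap.

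Hmga2 was at 17.53 and 24.8 CPM at E16.5 and 73.8 and 54.4 CPM at E17.5 in Sox9-CreER, and at 2.56 to 16.3 CPM in Ngn3-GFP+, a log2 fold change of 2.62 (SE 0.57, adjusted p = 0.00355). Hmga1 was at 56.2 and 62.02 CPM at E16.5 and at 36.4 and 20.8 CPM at E17.5 in Sox9-CreER, and at 12 to 26.1 CPM in Ngn3-GFP+, a log2 fold change of 1.32 (SE 0.22, adjusted p = 4.51e-04). Hmga2 was apart in every set, while 1 Sox9-CreER set of Hmga1 lay within the Ngn3-GFP+ range.

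Lin28a and Lin28b had 1 and 0 counts in all Sox9-CreER cells, and 5 and 1 in the Ngn3-GFP+ cells of the same days. A count of 0 in Sox9-CreER allows up to 0.0619 CPM. The 3 Igf2bp genes differed by 0.25 (SE 0.24), 0.23 (SE 0.21) and 0.26 (SE 0.20) log2 units and did not pass, and Mdk by 0.97 (SE 0.46, adjusted p = 0.135). The summed mitosis genes moved with the lineage, at 716 to 1669 CPM in Sox9-CreER and 8.84 to 1153 CPM in Ngn3-GFP+, and 4 of those 10 genes were higher in Sox9-CreER. Their part in the Hmga1 and Hmga2 differences was not tested. Dicer1, which cuts precursors to mature microRNAs, was lower in the duct lineage (-1.41).

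Between the Ngn3-GFPhigh and Ngn3-GFPlow sorts, 1 of the 10 genes (Lin28b) was lower in the high sort at E13.5, against 4.61% of 18989 genes. At E14.5 and E15.5 it was 3 of the 10 (Hmga1, Hmga2 and Lin28b), against 9.01% and 5.58% of the same genes. None was higher on any day. With no filter on low counts none passed at E15.5 in edgeR, where 5 had an unadjusted p under 0.05. With the set number as a block in the fit, 1 of the 10 passed at E14.5 and 1 at E15.5.

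Hmga2 was at 14.4, 17.2 and 17.8 CPM in Ngn3-GFPhigh and 138, 104, 43.5, 114 and 46.1 CPM in Ngn3-GFPlow at E14.5, a log2 fold change of -2.57 (SE 0.56, adjusted p = 0.00711). At E15.5 it was at 12.4 and 11.1 against 67.04 and 58.4 CPM, a log2 fold change of -2.53 (SE 0.73, adjusted p = 0.0419). The sorts did not overlap on either day. At E13.5 they did, at 23.5, 23.03 and 27.4 against 150.2, 24.6 and 18.6 CPM, with 1 high set, set 1, in the low sort. Gcg reached 5000 CPM in 28 of 118 Ngn3-GFPlow cells at E13.5, 2 of 104 at E14.5 and 0 of 37 at E15.5. In Ngn3-GFPhigh it did so in 3 of 77, 13 of 108 and 7 of 51 cells. Ngn3-GFPlow sets 1, 2 and 3 of E13.5 held 0, 21 and 7 such cells, and 4, 40 and 8 leukocyte-marker cells. The part of this make-up in the Hmga2 values was not tested.

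Hmga1 was at 17.4, 20.5 and 16.55 against 80.9, 21.5, 52.9, 32.5 and 35.1 CPM at E14.5, a log2 fold change of -1.47 (SE 0.36, adjusted p = 0.0134), and -1.65 at E15.5 (adjusted p = 0.0439). The sorts did not overlap in Hmga1 on any of the 3 days. Gpc3 just missed the threshold at E15.5, with 42.5 and 40.96 against 123 and 195 CPM and a log2 fold change of -2.05 (SE 0.62, adjusted p = 0.0501). Mdk did not pass on any day, with log2 fold changes of 1.17 (SE 0.42), 0.03 (SE 0.37) and 0.38 (SE 0.51).

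Leukocyte and mitosis markers moved with the sort. The summed leukocyte markers were 5.604 to 55.3 CPM in all Ngn3-GFPhigh sets and 6.99 to 9513 CPM in the Ngn3-GFPlow sets, with 7 of 8 markers lower in the high sort each day. The summed mitosis genes were 5.35 to 202 CPM in Ngn3-GFPhigh and 673 to 2670 CPM in Ngn3-GFPlow, without overlap. Without cells that carried markers of other types, no gene of the 10 passed at E13.5, and Hmga2 and Gpc3 passed at E14.5 and E15.5. Without those cells the Hmga1 difference was -0.85 at E14.5 and -0.12 at E15.5, and did not pass. The Lin28b difference turned without them, to 1.31 at E14.5 and 2.11 at E15.5, values fitted to a few counts that did not pass. The part of cell division was not tested. The Lin28b call at E13.5 was lost without any 1 of the 3 Ngn3-GFPhigh sets. At E14.5 that of Lin28b was lost without Ngn3-GFPhigh set 1 or 2, and that of Hmga1 without Ngn3-GFPhigh set 1 or 3. At E15.5, where each sort had 2 sets, no call was left when any 1 set was left out.

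Lin28b in these sorts lay largely in the leukocyte-marker cells. In Ngn3-GFPlow it was at 14.1, 12.8 and 11.54 CPM at E13.5, 2.31, 0, 7.77, 2.54 and 0.441 CPM at E14.5 and 2.55 and 10.52 CPM at E15.5, and in Ngn3-GFPhigh it had 1 count on each day. The leukocyte-marker cells held all 246 counts of Ngn3-GFPlow E14.5 and all 202 of E15.5, 83.4% of those at E13.5, 76.1% of those in Ngn3-GFP+ E12.5 and 55.04% in Ngn3-GFP+ E10.5. Over these 5 groups 149 such cells held 72.8% of the Lin28b counts and 33.7% of all counts, a level of 24.7 CPM against 3.97 CPM in the other 287 cells. The other cells of Ngn3-GFPlow E14.5 and E15.5 were at 0, which allows up to 0.0463 and 0.162 CPM.

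The other genes were distributed otherwise between the same cells. Mdk was at 2.29 CPM in the leukocyte-marker cells and 545 CPM in the others, Gpc3 at 1.49 and 527 CPM, Hmga2 at 5.00 and 80.9 CPM, and Igf2bp2 at 11.4 and 146 CPM. Lin28a was at 0.573 and 6.16 CPM, the opposite order to Lin28b. Igf2bp3 (102 and 97.3 CPM) and Igf2bp1 (110.4 and 161 CPM) differed less, and Hmga1 was higher in the leukocyte-marker cells (81.4 and 40.5 CPM). These are descriptions with no test. Lin28b was also present where no leukocyte-marker cell was found, at 25.9, 7.60 and 14.3 CPM in Pdx1-GFP+ E9.5 and 21.02 and 9.67 CPM in Pdx1-Cre E11.5.

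**Figure D3:**
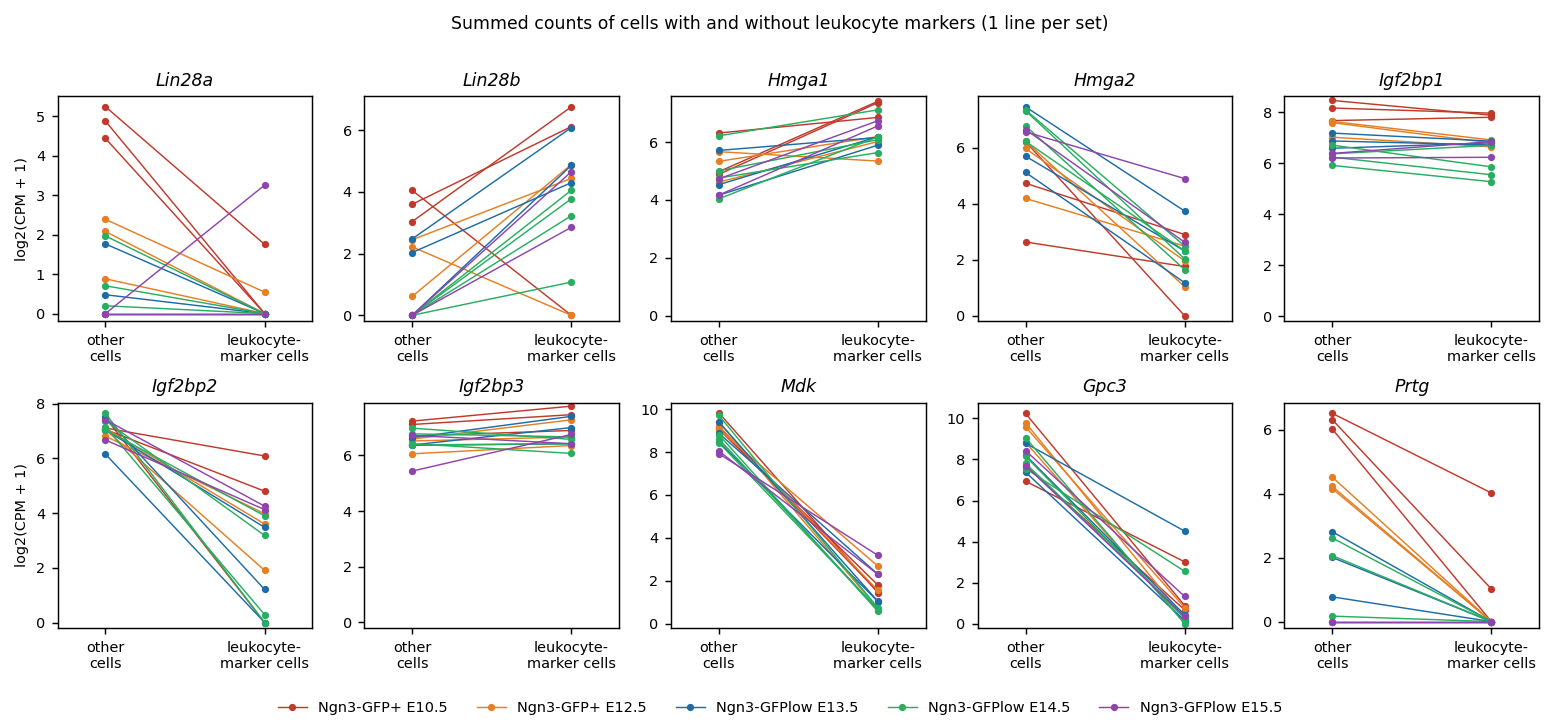
Level of each gene as log2(CPM + 1) in the summed counts of leukocyte-marker cells and of the other cells, 1 line per set, for the 5 groups that held most such cells. Mdk, Gpc3, Hmga2 and Igf2bp2 fall from left to right in all 15 sets drawn, while Lin28b rises in 13.

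Within Ngn3-GFPhigh, Mdk was at 721, 784 and 859.6 CPM at E13.5, 457, 422 and 334 CPM at E14.5 and 264 and 156 CPM at E15.5. Gpc3 was at 181, 247 and 262 CPM at E13.5 and 42.5 and 40.96 CPM at E15.5, and Igf2bp1 at 127, 148 and 169 CPM at E13.5 and 74.4 and 66.1 CPM at E15.5. The days did not overlap in these 3 genes, nor in Hmga2 and Igf2bp2, and they overlapped in the other 5. How large a share of all genes was apart in this way was not counted. None of the 10 passed between E13.5 and E15.5, against 0.0948% of all genes in either direction, with log2 fold changes of 1.88 (SE 0.50, adjusted p = 0.207) for Mdk, 2.42 (SE 0.60, adjusted p = 0.165) for Gpc3 and 1.04 (SE 0.24, adjusted p = 0.129) for Igf2bp1. In edgeR 3 had an unadjusted p under 0.05, and DESeq2 called 3. The change of the sort difference from E13.5 to E15.5, a test added after the data were seen, passed for none of the 10, against 0.121% of all genes, and 2 had an unadjusted p under 0.05.

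At E11.5 the Ptf1a lineage stood at the top of several orders. Igf2bp1 was at 277, 792 and 653 CPM in Ptf1a-CreER and 230.1 and 161 CPM in Ngn3-Cre, Hmga2 at 178, 256 and 209 against 37.1 and 112 CPM, and Prtg at 39.1, 109 and 121 against 22.4 and 18.7 CPM. The lineages did not overlap in these 3, nor in Igf2bp3 and Gpc3, and they overlapped in the other 5. The 792 CPM of Igf2bp1 came from Ptf1a-CreER set 2, a set of only 6 cells. None of the 10 genes passed edgeR's test, against 0.783% of all genes in either direction, while 6 had an unadjusted p under 0.05 and all 10 differences were negative. The shares of all genes that were apart between the lineages, or had a negative difference, were not counted. DESeq2 called 5, and limma 0. The log2 fold changes of Ngn3-Cre over Ptf1a-CreER were -1.60 (SE 0.42, adjusted p = 0.105) for Igf2bp1, -1.59 (SE 0.41, adjusted p = 0.103) for Hmga2 and -2.16 (SE 0.59, adjusted p = 0.116) for Prtg. Liver markers were carried by 10 of the 79 Ptf1a-CreER cells, with a summed level of 1281 to 2239 CPM in Ptf1a-CreER and 1492 to 1636 CPM in Ngn3-Cre. Mesenchyme markers were carried by 5 of the 44 Ngn3-Cre cells. Gcg reached 5000 CPM in 18 of the 44 Ngn3-Cre cells and 2 of the 79 Ptf1a-CreER cells, and the part of these cells was not tested. Without all cells with markers of other types 2 genes passed (Hmga2 and Gpc3).

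At E15.5 beta cells (Ins1-RFP+) were lower than alpha cells (Gcg-GFP+) in 2 of the 10 genes, against 0.358% of all 17595 genes. Mdk was at 7.48 and 16.9 CPM in beta cells and 131 and 88.3 CPM in alpha cells, a log2 fold change of -2.98 (SE 0.49, adjusted p = 0.0363). Gpc3 was at 16.9 and 11.8 CPM in beta cells and 59.9 and 104 CPM in alpha cells, a log2 fold change of -2.39 (SE 0.37, adjusted p = 0.0292). The cell types did not overlap in either gene. With 2 sets each, each call was lost in 3 of the 4 fits that left out 1 set. With the set number as a block in the fit, neither gene passed.

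Igf2bp1 went the other way, at 108 and 63.2 CPM in beta cells and 29.96 and 29.3 CPM in alpha cells, but its log2 fold change of 1.67 (SE 0.34, adjusted p = 0.0763) did not pass. In Ins1-RFP+ explants, none of the 7 genes that were tested passed for U0126, against 0.0% of all 12632 genes in edgeR, and none had an unadjusted p under 0.05. DESeq2 and limma called none of them either. Mdk was at 25.5, 21.1, 16.7 and 7.80 CPM with U0126 and 38.3, 15.04, 21.5 and 16.97 CPM without, and the treatments overlapped. Hmga2 was at 0.136, 1.82, 1.37 and 0.113 CPM with U0126 and 5.95, 3.90, 2.55 and 0.717 CPM without, a log2 fold change of -1.87 (SE 1.07). Lin28a, Lin28b and Prtg were too low to be tested there.

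**Figure D4:**
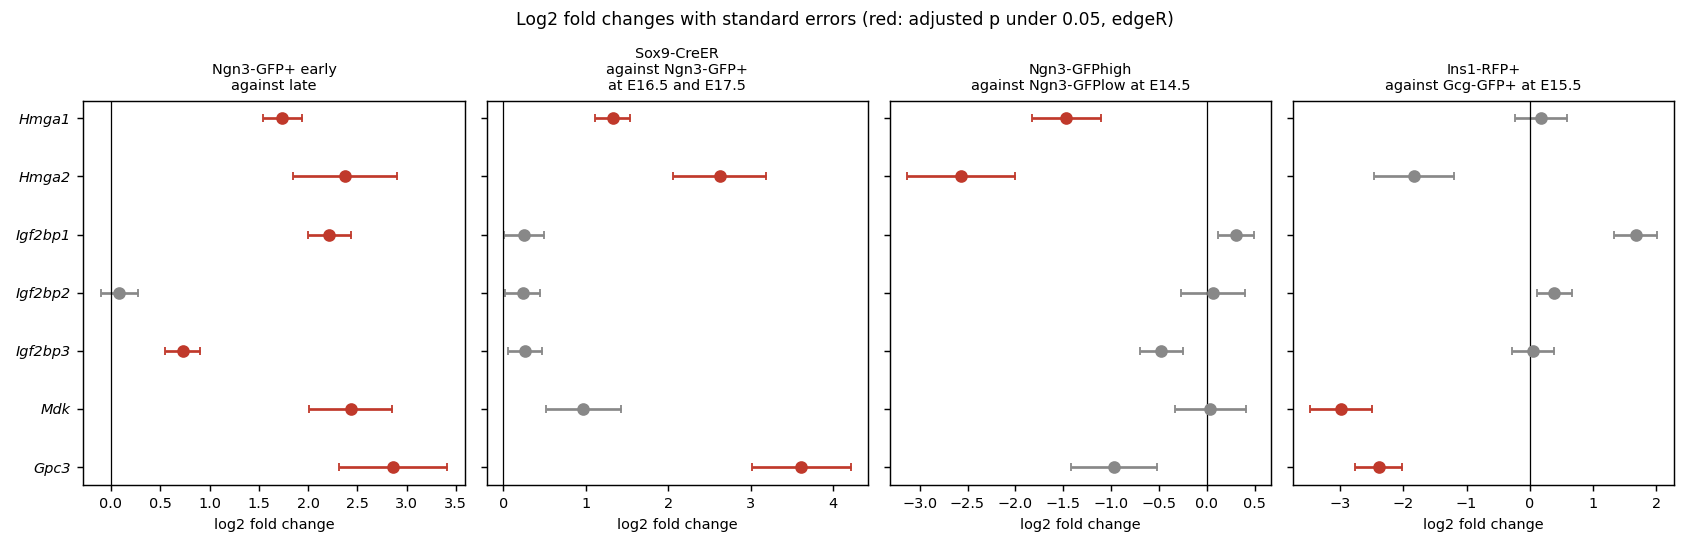
Log2 fold changes with standard errors of the 7 genes that were well above their floors, in 4 comparisons, with positive values higher in the group named first. Red points passed an adjusted p of 0.05 in edgeR: 6 of the 7 in the first panel, 3 in the second, and 2 in each of the other panels.

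The droplet libraries of E14.5 pancreas held 3402 and 6575 cells after filtering, with medians of 9238.5 and 4901 UMIs per cell, and shared 37 barcodes. Cells were clustered within each library without the 10 genes, and classes are called X-like because they rest on rebuilt marker clusters. The labels describe both libraries alike and give a single condition, so values of library 1 and library 2 are set side by side with no test. Clusters that met no marker rule stayed unnamed, with 1322 and 2015 cells.

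Mdk was highest in endocrine progenitor-like cells, at 3827 and 2021 CPM, in library 1, and in mesenchyme-like cells, at 2298 and 2380.5 CPM, in library 2. It was lowest in both libraries in leukocyte-like (144 and 133 CPM) and endothelium-like cells (246 and 142 CPM). Alpha or beta cell-like cells had 832 and 657 CPM, while cells sorted by Ins1-RFP and Gcg-GFP at E15.5 had the lower Smart-seq2 levels given above. Leukocyte-marker cells of the Ngn3-GFP sorts had 2.29 CPM by Smart-seq2, below the leukocyte-like cells here. The part of free RNA in the droplet levels was not tested. Gpc3 was highest in mesenchyme-like cells, at 337 and 312 CPM, and was at 30.9 and 17.1 CPM in alpha or beta cell-like cells. Leukocyte-like cells were at 26.9 and 12.0 CPM of Gpc3 and endothelium-like cells at 15.3 and 8.17 CPM. Late endocrine precursor-like cells were at 53.4 CPM in library 1 and, below both of these classes, at 6.61 CPM in library 2.

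Hmga2 was at 414 and 276 CPM in trunk and duct-like cells and 36.3 and 25.5 CPM in alpha or beta cell-like cells, an order that was the same in both libraries. In late endocrine precursor-like cells it was at 333 and 48.9 CPM and in endocrine progenitor-like cells at 45.6 and 183 CPM, so the libraries differed in both classes. The classes were not alike in the libraries: the cluster of late endocrine precursor-like cells had a median of 22313 UMIs in library 1 and 4069 in library 2, and held 4 trunk and duct markers in library 1. Igf2bp2 was lowest in leukocyte-like cells, at 7.41 and 15.2 CPM, against 121 and 86.7 CPM in trunk and duct-like cells. Igf2bp3 varied little, with 91.7 and 72.9 CPM in leukocyte-like and 112 and 91.5 CPM in trunk and duct-like cells.

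Lin28a and Lin28b were near the limit of detection at E14.5, with 16 and 5 UMIs of Lin28a and 33 and 27 of Lin28b in all cells of the 2 libraries. Lin28b in leukocyte-like cells had 1 and 7 UMIs, too few to rank classes. Prtg was at 14.4 and 15.9 CPM in mesenchyme-like cells.

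Hmga1 was at 1.92 and 85.7 CPM over all cells of the libraries, with 88 and 3998 UMIs. In acinar-like cells, where it was highest in both, it was at 5.13 and 197 CPM. A difference of this size between libraries of 1 condition leaves the level of Hmga1 uncertain.

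**Figure D5:**
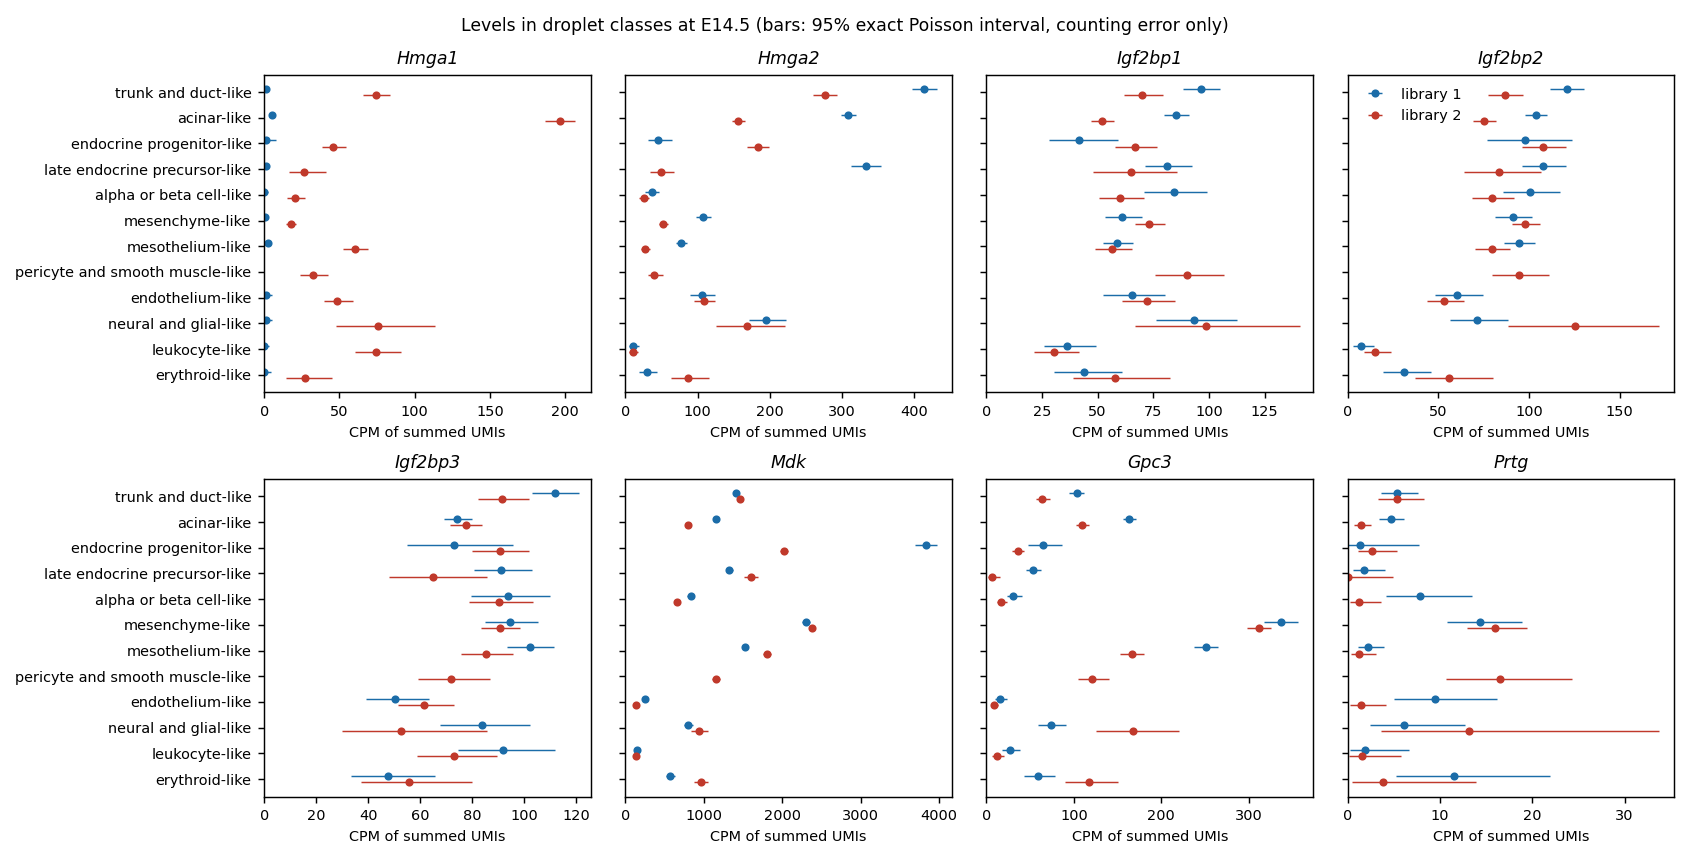
Level of 8 genes in droplet classes (rows) as CPM of summed UMIs, with library 1 in blue and library 2 in red and 95% exact Poisson intervals as bars. Mesenchyme-like cells are at 337 and 312 CPM of Gpc3, and leukocyte-like cells are the lowest class for Igf2bp2 in both libraries.

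Over the 29 groups, the genes that followed each member most closely were found by Pearson's r of log2(group mean CPM + 1), given with no p because groups share sorts and days. Among the members Lin28a and Prtg were closest (r = 0.928), then Hmga1 and Gpc3 (0.921) and Igf2bp1 and Igf2bp3 (0.910). Outside them, Lin28a was closest to Nepn (0.9498), Prtg to Pgam1 (0.941) and Lin28b to Slc16a3 (0.889). Hmga1 was closest to Rcc1 (0.960), Igf2bp1 to Sox11 (0.917), Igf2bp2 to Psmd2 (0.913) and Igf2bp3 to G3bp2 (0.924). Mdk was closest to Fscn1 (0.957) and Gpc3 to Dusp9 (0.95).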

How the data were processed

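Smart-seq2 read counts were deposited by the authors as whole numbers per gene and cell, with no normalization, and droplet UMI counts were deposited as matrices. Per the submitters' processing notes, TopHat2 2.1.0, Bowtie2 and HTSeq 0.6.0 on mm10 and Cell Ranger 2.0.2 were used. The role of each and the annotation are not given in the sources used here. A deposited gene length, of the authors and in an unstated definition, served only for levels per kilobase. Cells were amplified by PCR without molecular identifiers in Smart-seq2, so intervals and floors cover counting error only. The 92 ERCC rows were left out of totals.

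Counts were summed per set and tested over all genes with the quasi-likelihood F test of edgeR 4.0.16 in R 4.3.3, after filterByExpr and TMM scaling, with a threshold of 0.05 on Benjamini-Hochberg adjusted p. Each SE was the absolute log2 value divided by the square root of the F statistic, and the floor was 3 counts. Groups of few sets shared a fit. Alternatives were RLE size factors, DESeq2 1.42.0, limma 3.58.1, no filter, removal of cells with 4 markers of another type at 100 CPM, cells with high Gcg only, a replicate block, and each set left out. The test was checked on simulated counts. Droplet cells with fewer than 1000 genes or over 10% mitochondrial UMIs and called doublets (4 and 189) were left out, and the rest were clustered in scanpy 1.11.5.

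All 10 genes are reported, with up to 4 genes per further list and comparison, those of largest change among those that passed, and for each of the 10 the genes most like it (at least 20 CPM in 1 group). Of these up to 3 per gene were computed and the closest is printed, except for Hmga2, for which it is not reported here. The members and lists were chosen with earlier results of these data known.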

Additional observations from a re-analysis of the deposited data

Results flagged for a closer look

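In groups of 4 or more sets, 12 of 78 tests of a single set against the rest of its group found it far from the others (Dixon's test), where chance gives about 1 in 20. Among the well-detected genes, Mdk was 134 CPM in Ngn3-GFP+ E17.5 set 3, with the other sets at 28.2 to 39.5 CPM, and 381 CPM in Pdx1-Cre E13.5 set 4, with the others at 568 to 601 CPM. Igf2bp2 was 72.6 CPM in Pdx1-Cre E14.5 set 1, a set of 6 cells, with the others at 140 to 149 CPM. Hmga1 was 13.2 CPM in explant control set 1, with the others at 18.5 to 19.1 CPM.

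The other 8 were sets with few counts in groups at or near 0. Lin28a was 2.36 CPM in explant control set 3, 0.141 CPM in Ngn3-GFP+ E16.5 set 2, 2.39 CPM in Ngn3-GFPlow E14.5 set 1 and 0.253 CPM in Pdx1-Cre E14.5 set 3. Lin28b was 2.37 CPM in U0126 explant set 4, 1.39 CPM in explant control set 2 and 0.0567 CPM in Ngn3-GFP+ E17.5 set 4. Prtg was 1.46 CPM in explant control set 1.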

How the results depend on the processing

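Limits: sets are few (1 to 5 a group), so moderate differences go uncalled, and Lin28a, Lin28b and Prtg are near 0 in many groups. In settings that did not leave out a set, 504 values kept direction and side of the threshold, 22 lost it, 38 gained it and 10 turned, not counting the added test of the change of the sort difference.

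The number of the 10 genes called moved as follows, and the cause was not tested. Counts from the alternative fits are given without the share of all genes called. For the Pdx1-Cre trend it was 6, with 10 in limma and 2 for E15.5 against E10.5. For Pdx1-GFP+ E9.5 against E11.5 it was 0, with 2 in DESeq2 and 1 in limma. For the sorts at E13.5 it was 1, with 2 in DESeq2, 2 in limma and 0 without cells with markers of other types. For the sorts at E15.5 it was 3, with 5 in DESeq2 and 0 with no filter. For Ngn3-GFPhigh E13.5 against E15.5 it was 0, with 3 in DESeq2 and 1 without cells of other types. For Ngn3-Cre against Ptf1a-CreER it was 0, with 5 in DESeq2, 3 with no filter and 2 without cells of other types.

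Whether set numbers pair sets was not settled, and the main tests did not pair them. Same-numbered sets of the sorts correlated at 0.136, 0.0874 and 0.0796 at E13.5, and at E14.5 at 0.0890, 0.0331 and 0.0589. These values are low, yet each of these sets correlated best with its own number. In the explants they were 0.0856, 0.0388, 0.0635 and 0.138, and all but set 2 correlated best with their own number. With the replicate block the calls were 1, 1 and 1 for the sorts on the days from E13.5 to E15.5, 2 for Sox9-CreER against Ngn3-GFP+ and 0 for beta against alpha cells.

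Without cells with markers of other types, these differences between the sorts turned: Gpc3 at -0.35 at E13.5; Lin28b at 1.31, Igf2bp2 at -0.20 and Mdk at -0.32 at E14.5; Lin28a at 2.12, Lin28b at 2.11, Igf2bp2 at -0.32, Igf2bp3 at 0.10 and Mdk at -0.21 at E15.5. In the change of the sort difference Hmga1 turned to 0.15 and Lin28a to 2.60. In limma Igf2bp3 in beta against alpha cells turned to -0.078. Of the values that turned, Lin28b at E14.5 and E15.5 had passed in the main test.

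Leaving out 1 set gave 4 to 8 calls for the trend, 9 to 9 for early against late, 3 to 4 for Sox9-CreER, 0 to 3, 1 to 3 and 0 to 0 for the sorts on those days, 0 to 3 for Ngn3-Cre and 0 to 1 for beta against alpha cells. Leaving out 1 set turned the direction of 20 values, none of which had passed its test. Their ranges in log2 units were as follows: for the sorts at E13.5, Gpc3 -0.17 to 1.00, Hmga2 -1.84 to 0.084 and Prtg -0.91 to 0.48; for Pdx1-GFP+ E9.5 against E11.5, Gpc3 -0.36 to 0.077; for beta against alpha cells, Hmga1 -0.10 to 0.39 and Igf2bp3 -0.18 to 0.32; for Ngn3-Cre against Ptf1a-CreER, Igf2bp2 -0.98 to 0.17; for early against late, Igf2bp2 -0.052 to 0.19. The rest were, for the sorts at E14.5, Igf2bp2 -0.088 to 0.33, Mdk -0.12 to 0.38 and Prtg -0.32 to 1.28; for the sorts at E15.5, Igf2bp2 -0.15 to 0.68, Igf2bp3 -0.49 to 0.16 and Lin28a -8.71 to 2.38; for U0126, Igf2bp2 -0.066 to 0.19 and Igf2bp3 -0.11 to 0.16; for Ngn3-GFPhigh E13.5 against E15.5, Igf2bp3 -0.21 to 0.082; for the change of the sort difference, Igf2bp3 -0.0092 to 0.59, Lin28a -9.22 to 1.965 and Lin28b -0.96 to 3.27.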
